A study of Homo sapiens with 4 samples.

Results

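The genes described here are 9 members of the classical NF-kB pathway, namely the subunit genes NFKB1, REL and RELA, the inhibitor genes NFKBIA and NFKBIE, the feedback gene TNFAIP3, the cytokine gene LTA, and the adaptor and protease genes BCL10 and MALT1. They were chosen by gene symbol, and every probe set annotated to 1 of these symbols alone was taken, which gave 21 probe sets. All 9 genes were measured, out of 18239 genes with such a probe set and 10823 that reached a brightness minimum. The data come from microarrays of 2 human mantle cell lymphoma (MCL) lines, a B-cell malignancy. The groups were REC-1 cells with CC-292, REC-1 control cells, Z138 cells with CC-292 and Z138 control cells, with 1 array in each. CC-292 inhibits Bruton tyrosine kinase (BTK). The exposure lasted 48 h, and the dose stands as 1 uM in the treatment protocol but as 1 mM in the titles of the treated arrays. For the Z138 control the title states no time. No label names what the control cells received, and no allele or transgene is given for either line.

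In resting cells the classical NF-kB dimers, built from RELA, REL and the p50 product of NFKB1, are held in the cytoplasm by IkB proteins such as IkB-alpha (NFKBIA) and IkB-epsilon (NFKBIE). In B cells the receptor signals through BTK and protein kinase C to BCL10 and MALT1, which act together to activate IKK, and IKK marks the IkB proteins for destruction. The freed dimers switch on target genes, among them NFKBIA, NFKBIE and TNFAIP3, whose products shut the pathway down again. TNFAIP3 encodes A20, a ubiquitin-editing enzyme, and LTA encodes lymphotoxin alpha, a secreted cytokine of activated lymphocytes.

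Values are log2 probe-set signals as deposited, so a difference of 1 stands for a 2-fold difference. A gene is represented by its brightest probe set (by the mean of the arrays), and the SD over its probe sets describes their spread only. With 1 array per group the error between cultures is unknown and no p-value is given within a line. Of the 21 probe sets, 20 reached the brightness minimum, the median of all values (log2 4.63), on at least 1 array, and 19 reached it on all 4. The median of the 4 arrays lay between 4.63 and 4.64, and the median of the nonspecific probes, a measure of background, was 3.06 to 3.12. The 3' minus 5' difference of control probe sets grows as RNA degrades. For ACTB it was 0.53 with CC-292 and 0.77 in the control in REC-1, and 1.11 and 1.12 in Z138. For GAPDH it was -0.31 with CC-292 and -0.32 in the control in REC-1, and -0.24 and -0.28 in Z138. All 7 measured B-cell and MCL markers (CD79A, CD79B, MS4A1, PAX5, CD22, CCND1 and SOX11) reached the minimum on every array, whereas none of 6 myeloid markers did on any. T and NK markers reached it in at most 2 of 7 cases on an array, erythroid markers in 1 of 2 on every array, and stromal markers in 1 of 3 with CC-292 and 0 of 3 in the control in REC-1 and in 2 of 3 on both Z138 arrays. The highest erythroid and stromal levels were 4.95 and 5.18, close to the minimum. The highest T and NK levels were further from it in Z138, where CD3G had 6.07 with CC-292 and 5.96 in the control. In REC-1 the highest T and NK levels were 4.81 with CC-292 and 4.61 in the control. In these cultures, fewer cells that express a gene and less RNA per cell cannot be told apart.

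Promoter sequence was at hand for 8 of the 9 genes (RefSeq, GRCh38.p14), and both strands of the 250 bases before each start site were searched for the kappa-B decamer consensus. A match stood before NFKB1, REL, NFKBIA, TNFAIP3 and LTA, and none before RELA, BCL10 and MALT1. By the same count, 11.8% of 27305 genes had a promoter with a match (9.96% of 35116 promoters). The 5 windows are shown because the subunit genes, the feedback genes and the cytokine gene with a match are the ones whose levels are set beside each other in what follows. Each runs 5′ to 3′ on the strand of the gene, with the matched bases in capitals, and overlapping matches in REL and LTA are merged.
TNFAIP3 (chr6:137867167-137867238, plus strand): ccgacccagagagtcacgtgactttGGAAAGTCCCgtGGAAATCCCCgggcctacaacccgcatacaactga
NFKBIA (chr14:35404796-35404855, minus strand): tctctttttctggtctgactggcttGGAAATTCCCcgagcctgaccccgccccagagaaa
NFKB1 (chr4:102501285-102501344, plus strand): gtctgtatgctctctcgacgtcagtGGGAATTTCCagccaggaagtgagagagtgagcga
REL (chr2:60881502-60881562, plus strand): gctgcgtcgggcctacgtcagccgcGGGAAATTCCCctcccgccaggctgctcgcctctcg
LTA (chr6:31572160-31572220, plus strand): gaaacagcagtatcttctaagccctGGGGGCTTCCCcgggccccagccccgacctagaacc
TNFAIP3 held 2 separate matches, 67 to 46 bases before the start site, and NFKBIA held 1, at 81 to 72 bases. The LTA window belongs to the downstream one of 2 listed start sites, and the window before the other LTA start site held no match. NFKB1 too has 2 listed start sites, and the window before its downstream one held no match. A match describes these letters and is no evidence of binding.

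The first question was how the members differed after CC-292 in each line. In REC-1 the feedback gene TNFAIP3 was 1.69-fold lower and the cytokine gene LTA 2.14-fold lower on the CC-292 array, and both IkB genes were lower by smaller amounts. The 3 subunit genes and MALT1 differed by less than 0.20 on their brightest probe sets. In Z138 no member differed by 1.5-fold, and LTA was the lowest at -0.52. The plot of levels on each array shows all probe sets behind these values.

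**Figure D1:**
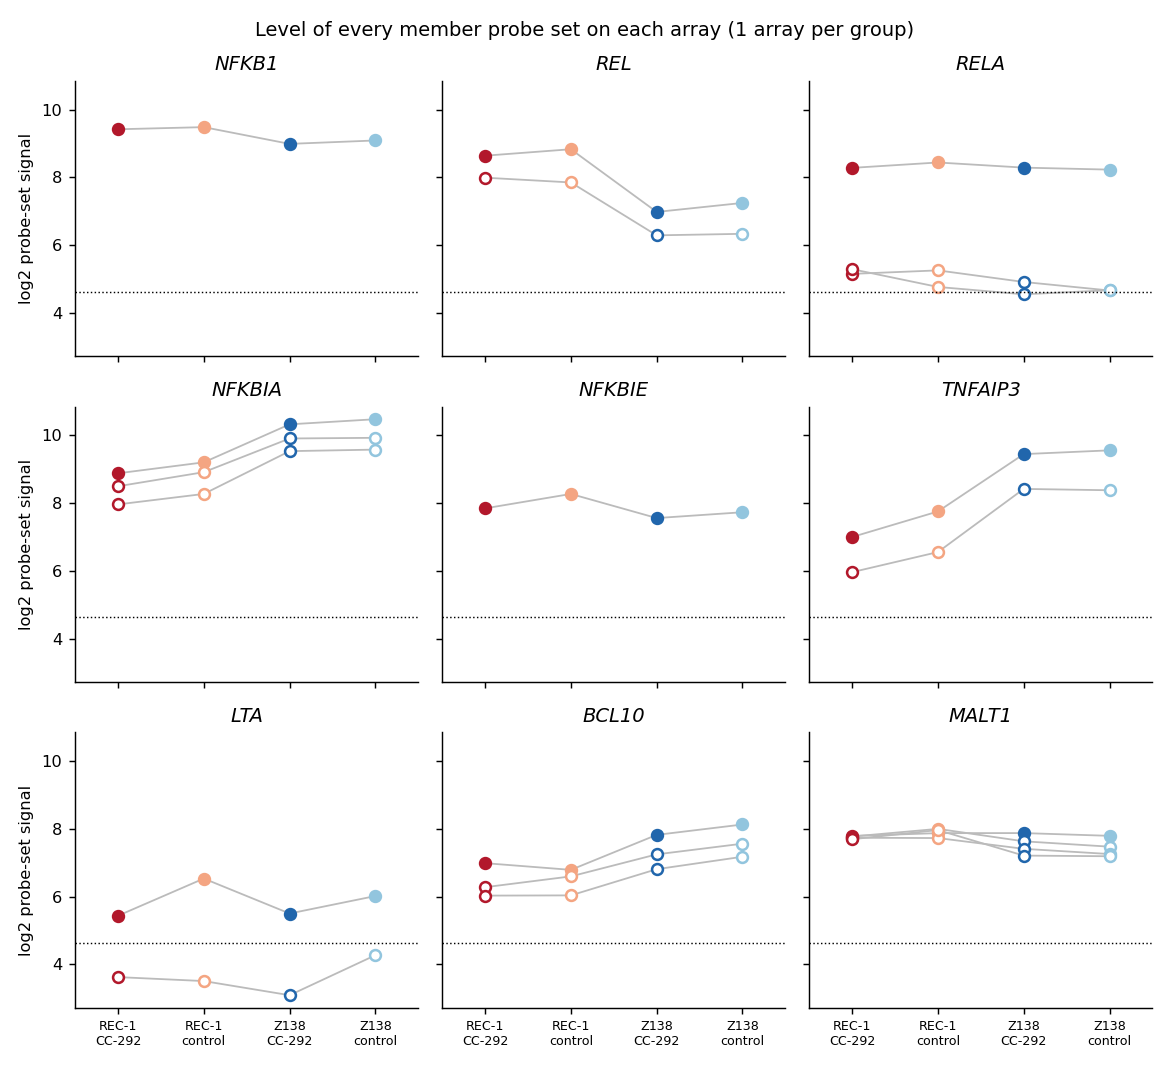
Level (log2 probe-set signal) of every probe set of the 9 members on the 4 arrays, with filled points for the brightest probe set, open points for the others, and a dotted line at the brightness minimum of 4.63. TNFAIP3 and NFKBIA lay lower on both REC-1 arrays than on both Z138 arrays on every probe set, REL lay higher, and the dim LTA probe set stayed below the minimum throughout.

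TNFAIP3 had a level of 6.999 with CC-292 against 7.75 in the control in REC-1, and 9.44 with CC-292 against 9.55 in the control in Z138. The CC-292 array of REC-1 was thus the lowest of the 4. Its second probe set had 5.96 with CC-292 against 6.56 in the control in REC-1, and 8.42 against 8.38 in Z138. The CC-292 difference in REC-1 was -0.75 on the first and -0.59 on the second probe set (SD 0.11 over 2 probe sets), both past 1.5-fold. In Z138 the same probe sets differed by -0.11 and 0.04, in opposite directions. Of all 10823 genes, 2.31% were as low as TNFAIP3 or lower in REC-1, and 28.1% in Z138.

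NFKBIA, which encodes an inhibitor that is quickly resynthesised after NF-kB activation, had levels of 8.88 with CC-292 against 9.20 in the control in REC-1. In Z138 its levels were 10.32 with CC-292 against 10.47 in the control. The 3 probe sets of NFKBIA differed by -0.32, -0.42 and -0.31 in REC-1, and by -0.15, -0.02 and -0.05 in Z138. All 6 of these values were below 0, and each one in REC-1 lay further from 0 than any in Z138. NFKBIA was nevertheless not among the lowest genes, with 16.8% of genes as low or lower in REC-1. NFKBIE, the gene of IkB-epsilon, was measured by 1 probe set, with 7.84 with CC-292 against 8.27 in the control in REC-1 and 7.56 against 7.73 in Z138. It was 1.34-fold lower in REC-1 and 1.13-fold lower in Z138. With 1 probe set no spread can be given for NFKBIE itself, and the SD between probe sets, pooled over all genes, was 0.31 for the REC-1 and 0.25 for the Z138 difference.

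LTA had a level of 5.43 with CC-292 against 6.53 in the control in REC-1, and 5.50 with CC-292 against 6.02 in the control in Z138. Both CC-292 arrays lay below both control arrays on this probe set, with a difference of -1.096 in REC-1 and -0.52 in Z138. In REC-1, 0.517% of all genes were as low or lower. The second LTA probe set did not bear the REC-1 difference out. It had 3.62 with CC-292 against 3.51 in the control in REC-1 and 3.09 against 4.27 in Z138, below the brightness minimum on every array. Its difference was 0.12 in REC-1 and -1.18 in Z138, and 3.09 is close to the level of the background probes. With the mean of both probe sets the LTA difference was -0.49 in REC-1 and -0.85 in Z138, so that the line with the larger difference depends on the probe set.

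Among the subunits, NFKB1, the gene of p105 and p50, had 9.42 with CC-292 against 9.48 in the control in REC-1 and 8.99 against 9.09 in Z138. REL, the gene of c-Rel, had 8.64 with CC-292 against 8.83 in the control in REC-1 and 6.98 against 7.25 in Z138. RELA, the gene of p65, had 8.28 with CC-292 against 8.44 in the control in REC-1 and 8.29 against 8.23 in Z138. Within each line, these arrays lay within 0.27 of each other. The second REL probe set differed by 0.14 in REC-1, opposite to the -0.19 of the first, and by -0.05 in Z138. The 3 RELA probe sets ran from -0.16 to 0.52 in REC-1 (SD 0.38) and from -0.12 to 0.25 in Z138 (SD 0.19), and both of the other RELA probe sets were dim, with a highest level of 5.29. The mean over RELA probe sets was 0.09 in REC-1, opposite in sign to the brightest one. No common direction was thus measured for REL or RELA in REC-1.

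BCL10, the adaptor that binds MALT1, had a level of 6.98 with CC-292 against 6.79 in the control in REC-1, and 7.82 with CC-292 against 8.12 in the control in Z138. Its 3 probe sets disagreed in REC-1, at 0.20, -0.32 and -0.01. In Z138 they ran close together at -0.31, -0.31 and -0.37 (SD 0.03), the tightest agreement of any member with several probe sets in that line. Even so, 9.72% of genes were as low or lower in Z138. MALT1, the paracaspase that cleaves A20 and other inhibitors of the pathway, had 7.79 with CC-292 against 7.87 in the control in REC-1 and 7.87 against 7.79 in Z138. Its 4 probe sets ran from -0.27 to 0.01 in REC-1 and from 0.02 to 0.16 in Z138. MALT1 differences were thus small in both lines.

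**Figure D2:**
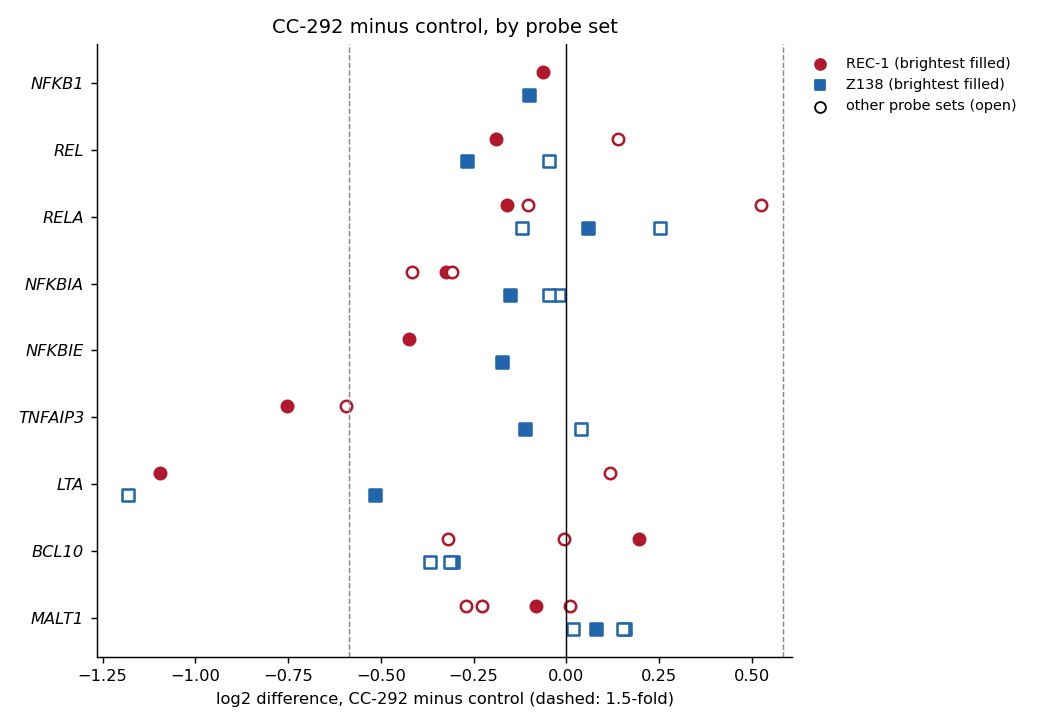
CC-292 minus control difference (log2) of each member probe set in REC-1 (circles) and Z138 (squares), with the brightest probe set of a gene filled and dashed lines at 1.5-fold. In REC-1 both TNFAIP3 probe sets and the bright LTA probe set lie past the lower line, and in Z138 only the dim LTA probe set does.

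Counted over genes, 8 of 9 members were below 0 in REC-1 after CC-292, where 57.8% of all genes were. Their median was -0.19, against -0.05 for all genes. At least 1.5-fold lower were 2 of the 9, TNFAIP3 and LTA, against 4.73% of all genes, and 1 of the 9, LTA, was at least 2-fold lower, against 0.758% of all genes. No member was 1.5-fold higher, against 4.32% of genes. Over probe sets, 16 of 21 were below 0 in REC-1, and 4 genes, NFKB1, NFKBIA, NFKBIE and TNFAIP3, had every probe set below 0. Of these, NFKB1 and NFKBIE have 1 probe set each. In Z138, 7 of 9 members were below 0 against 48.1% of all genes, with a median of -0.15 against 0.01. None of the 9 was 1.5-fold lower, where 2.52% of genes were, or 1.5-fold higher, where 2.18% were. Over probe sets, 14 of 21 were below 0 in Z138, and 6 genes, NFKB1, REL, NFKBIA, NFKBIE, LTA and BCL10, had every probe set below 0. The matching shares over all probe sets were not counted for either line. Below 0 in both lines were 6 of 9 members, NFKB1, REL, NFKBIA, NFKBIE, TNFAIP3 and LTA, against 26.5% of genes. Hybridization controls, which are spiked in at fixed amounts, had median differences of -0.07 in REC-1 and 0.09 in Z138.

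Over both lines together, the average CC-292 difference was tested in limma across 10823 genes, with cell line as a term. The error then comes from the gap between the CC-292 differences of the 2 lines, which leaves 1 degree of freedom. In limma it is moderated by a prior from all genes (4.51 degrees of freedom). No member passed an adjusted p of 0.05, and neither did any other gene (0% of genes). At an unadjusted p under 0.05, 4.36% of genes were called and 1 of the 9 members, LTA, with an average log2 difference of -0.81 (SE 0.20, unadjusted p = 0.00797, adjusted p = 1.00 in limma). TNFAIP3 had an average of -0.43 (SE 0.21, unadjusted p = 0.0860 in limma). NFKBIE had -0.30 (SE 0.16) and NFKBIA -0.24 (SE 0.16). The remaining members had averages between -0.23 and 0.00.

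The next question was whether the CC-292 difference itself differed between the lines, which 1 array per group leaves untested. TNFAIP3 had the largest gap, with a REC-1 minus Z138 difference of -0.64 on the first and -0.63 on the second probe set. For this quantity the SD between probe sets, pooled over genes, was 0.40. Of all genes, 8.81% were at least 1.5-fold lower in this way and TNFAIP3 was the only one of the 9 members, with LTA just short of it at -0.58. This count was 0 with quantile normalization and 0 with cyclic loess, and 2 with centred arrays. BCL10 lay on the other side at 0.50, but its 3 probe sets ran from 0.00 to 0.50. Hybridization controls had a median of -0.20 for the same quantity (-0.33 to -0.06 over 9 probe sets), and the part of this in the members' values was not tested. The values for NFKBIA and NFKBIE were -0.17 and -0.25, within that range, and the other members lay between -0.22 and 0.08.

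The last question was how the members differed between the lines. Z138 had the higher levels of TNFAIP3, NFKBIA and BCL10, and REC-1 had the higher level of REL, in both culture conditions. These differences between lines were larger than any difference after CC-292 measured on the brightest probe sets, except that of BCL10 between the CC-292 arrays, which was smaller than the LTA difference in REC-1. RELA and MALT1 differed little between lines on their brightest probe sets. On the CC-292 arrays, 2 of 9 members were at least 2-fold lower in REC-1 (13.3% of all genes) and 1 at least 2-fold higher (12% of genes). On the control arrays 3 of 9 were at least 2-fold lower (12.4% of genes) and 1 at least 2-fold higher (11.9% of genes). With 9 members these shares rest on few genes, and whether they differ from those of all genes was not tested.

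**Figure D3:**
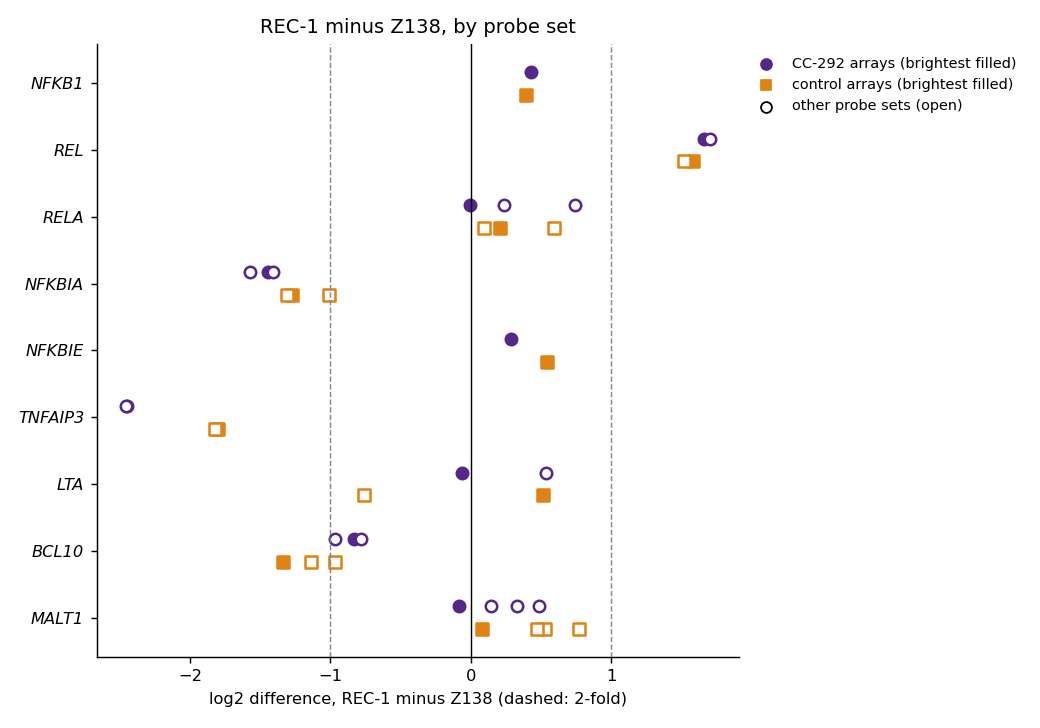
REC-1 minus Z138 difference (log2) of each member probe set on the CC-292 arrays (circles) and the control arrays (squares), with the brightest probe set filled and dashed lines at 2-fold. REL lies past 2-fold on the right, TNFAIP3 and NFKBIA lie past it on the left on both pairs of arrays, and both TNFAIP3 probe sets lie further left on the CC-292 arrays.

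TNFAIP3 was 5.44-fold lower in REC-1 than in Z138 on the CC-292 arrays and 3.49-fold lower on the control arrays. Its second probe set was 5.48-fold and 3.54-fold lower on the same pairs of arrays. The SD over the 2 probe sets of TNFAIP3 was 0.01 on the log2 scale for each pair. NFKBIA was 2.72-fold lower in REC-1 than in Z138 on the CC-292 arrays and 2.41-fold lower on the control arrays, and its 3 probe sets ran from -1.57 to -1.01 over both pairs. BCL10 was 1.78-fold lower in REC-1 on the CC-292 arrays and 2.53-fold lower on the control arrays, with all 3 probe sets below 0 on both. REL was higher in REC-1 than in Z138 by 1.66 on the CC-292 arrays and by 1.58 on the control arrays, on the log2 scale. Its second probe set gave 1.70 and 1.51, in the same direction. The ACTB 3' to 5' difference given above also differed between the lines, and that of GAPDH did so much less. The part of RNA quality in these values was not tested.

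In limma over all 4 arrays, with CC-292 as a term, the line effect passed an adjusted p of 0.05 for 4 of 9 members, where 44.7% of all genes passed, so that the members' share is close to the background. The arrays of a line were 1 control and 1 CC-292 culture. The CC-292 term takes out the average response, and the error holds the part of the response that differs between the lines. REL was higher in REC-1 with an average of 1.62 (SE 0.16, adjusted p = 0.000997 in limma). TNFAIP3 was lower at -2.12 (SE 0.21, adjusted p = 0.00104), as were NFKBIA at -1.36 (SE 0.16, adjusted p = 0.00190) and BCL10 at -1.09 (SE 0.19, adjusted p = 0.00690). NFKB1 and NFKBIE, both higher in REC-1 on the deposited values, did not pass, with 0.41 (SE 0.16, adjusted p = 0.0814) and 0.41 (SE 0.16, adjusted p = 0.0933). Hybridization controls also differed between the control arrays, by a median of 0.33 (0.17 to 0.53 over 9 probe sets), beside 0.39 for NFKB1 and 0.54 for NFKBIE on those arrays, and the part of this in the 2 values was not tested. The line effects of RELA (0.10), LTA (0.23) and MALT1 (0.00) did not pass either. The other 3 MALT1 probe sets ran from 0.47 to 0.77 on the control arrays, against 0.08 on the brightest, so that the MALT1 value depends on the probe set.

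Ordered by level on its own probe set, each member's 4 arrays can be set side by side. TNFAIP3, NFKBIA, REL and BCL10 separated the lines fully on every probe set, with the arrays of a line next to each other. NFKB1 and NFKBIE, each with 1 probe set, did so too, by smaller gaps. For LTA the brightest probe set ordered the arrays by agent, with both CC-292 arrays at the low end, 0.07 apart. NFKBIE had its highest level in the REC-1 control, at 8.27, followed by REC-1 with CC-292 at 7.84. The 4 values of RELA and of MALT1 on their brightest probe sets lay within 0.21 and 0.08 of each other. For the REC-1 minus Z138 difference of the control arrays, the SD between probe sets, pooled over genes, was 0.48.

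The other genes of the pathway were taken from 4 lists, of the signal to IKK, of linear ubiquitin enzymes and partners of A20, of other IkB proteins and subunits, and of other NF-kB targets. In the list of the signal to IKK, 11 of 15 genes were kept, with a median of 0.06 in REC-1 and -0.07 in Z138 after CC-292. Only IKBKB, the gene of IKK-beta, was 1.5-fold different in REC-1, at 0.69, but the mean over its 11 probe sets was 0.18 (SD 0.42), and none was in Z138. PRKCB, a protein kinase C gene that acts downstream of BTK, was 26.4-fold higher in REC-1 than in Z138 control cells, where 3.58% of genes were at least 4-fold higher. That value is of its brightest probe set, with a log2 difference of 4.72, and the mean over 3 probe sets was 4.30 (SD 0.89). The 10 ubiquitin enzymes and A20 partners had medians of 0.12 in REC-1 and 0.02 in Z138. Of them, RNF31, the gene of the catalytic subunit of the linear ubiquitin ligase, was 1.53-fold higher in REC-1 on its 1 probe set and none was 1.5-fold different in Z138.

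Among the 6 other IkB and subunit genes, 5 were below 0 in REC-1 (median -0.39), where 57.8% of all genes were. In Z138, 4 of them were below 0 (median -0.15), where 48.1% of all genes were. RELB, a subunit of the alternative pathway, was at -0.92 in REC-1 and -0.15 in Z138 on its 1 probe set. NFKBID, a nuclear IkB gene, was at -0.83 (SD 0.25 over 2 probe sets) in REC-1 and -0.48 (SD 0.14) in Z138. RELB and NFKBID were thus 2 of the 6 genes at least 1.5-fold lower in REC-1, against 4.73% of all genes. No gene of this list was 1.5-fold different in Z138. NFKB2, the gene of p100 and p52, was 6.49-fold lower in REC-1 than in Z138 control cells, where 3.63% of genes were at least 4-fold lower, and neither REC-1 array reached the brightness minimum for it.

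Of 25 other targets 19 were kept, with medians of -0.30 in REC-1 and -0.12 in Z138. In REC-1, 15 of the 19 were below 0 (against 57.8% of all genes) and 5 at least 1.5-fold lower (against 4.73%), namely the chemokine genes CCL3 (-1.59) and CXCL10 (-1.48), the pleckstrin gene PLEK (-0.85), and the surface receptor genes CD83 (-0.74) and CD40 (-0.71). The homing receptor gene CCR7 was higher at 0.96, from a control level just under the brightness minimum. In Z138, 13 of 19 were below 0 (against 48.1% of all genes) and 4 at least 1.5-fold lower (against 2.52%), namely CCL3 (-1.10), the costimulatory ligand genes CD86 (-0.91, SD 0.65 over 4 probe sets) and CD80 (-0.63, mean -0.29 over 5 probe sets), and CD40 (-0.75, mean -0.59 with an SD of 0.23 over 2 probe sets). CCL3 and CD40 were thus 1.5-fold lower in both lines on their brightest probe sets. The mean over probe sets fell short of 1.5-fold for CD40 in REC-1 (-0.51, SD 0.29 over 2 probe sets) and for PLEK in REC-1 (-0.58, SD 0.39 over 2 probe sets). In Z138 the mean fell short for CD86 (-0.47) and CD80 (-0.29). CXCL10 reached the brightness minimum only in the REC-1 control (5.44). It had 3.96 with CC-292 in REC-1, and 3.67 with CC-292 and 3.78 in the control in Z138. CXCL10 was thus kept only through the array where it is high, and its place among the 5 carries no weight of its own. CCL3 with CC-292 in Z138 (4.05) lay below the minimum.

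**Figure D4:**
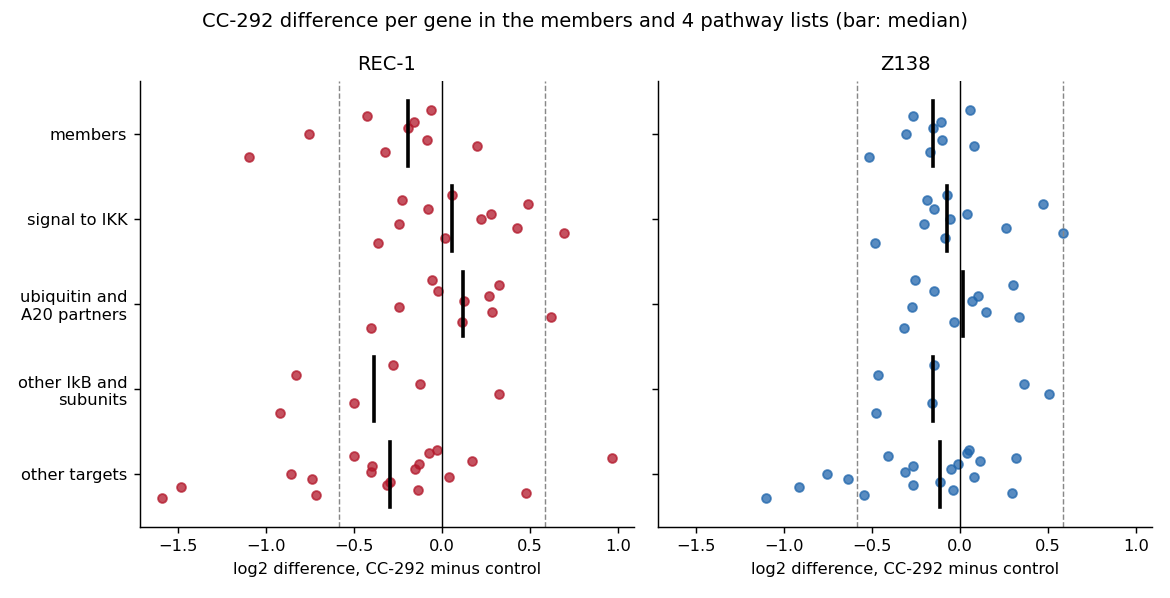
CC-292 minus control difference (log2) of each gene in the 9 members and the 4 other lists, in REC-1 (left) and Z138 (right), with a bar at the median of each list and dashed lines at 1.5-fold. In REC-1 the medians of the members, the other IkB and subunit genes and the other targets lie at -0.19, -0.39 and -0.30, and those of the 2 upstream lists at 0.06 and 0.12.

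Between the lines the other targets lay on both sides. On the control arrays, CCR7 was 36.1-fold lower and CD80 6.14-fold lower in REC-1 than in Z138. CCR7 in the REC-1 control (4.627) lay just under the brightness minimum (4.633). CD80 lay under it on both REC-1 arrays, at 4.05 with CC-292 and 4.44 in the control. GADD45B, a stress-response gene, was 12.6-fold lower on its brightest probe set, with a log2 difference of -3.66 there and a mean of -2.10 (SD 1.21) over 4 probe sets. LTB, which encodes the partner of lymphotoxin alpha on the cell surface, was 19.7-fold higher (mean log2 difference 3.75, SD 0.77 over 2 probe sets) and the cytokine subunit gene EBI3 4.78-fold higher in REC-1. EBI3 has 1 probe set, and its Z138 levels, 4.57 with CC-292 and 4.83 in the control, lay close to the brightness minimum. The survival gene BCL2A1 had 5.13 with CC-292 and 5.29 in the control in REC-1, against 2.91 and 2.83 in Z138. Both Z138 levels were under those of the nonspecific probes (medians of 3.06 to 3.12), and no fold is given. In limma 6 of the 19 targets were higher and 6 lower in REC-1, against 44.7% of all genes called in either direction.

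The genes whose 4 centred values lay nearest to those of TNFAIP3, by Euclidean distance over the 4 arrays, were AK4 (distance 0.12), IRF4 (0.14) and DNAJC3 (0.15). IRF4, a transcription factor gene of activated B cells and plasma cells, was at -0.70 in REC-1 and 0.07 in Z138 after CC-292. Those nearest to LTA were TYMSOS (0.10), PABPC4L (0.13) and LAT2 (0.17). LAT2, an adaptor gene of B-cell receptor signalling, was at -1.01 in REC-1 and -0.67 in Z138 after CC-292. The likeness rests on 4 values per gene and describes these arrays only.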

How the data were processed

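RNA of 4 cultures was hybridised to 1-colour Affymetrix arrays. The authors deposited log2 signals, 1 for each probe set and array. RMA and, as software, Affymetrix Expression Console 1.1 are named, without settings, per the submitters' processing notes. That the scale is log2 follows from RMA and the range of 2.18 to 14.26. RMA commonly includes quantile normalization, so a shift of most genes one way would not show. Of 49386 probe sets, 45259 had 1 symbol, 1327 several and 2800 none. Only those with 1 symbol were used, without the 93 array controls. Arrays have no sequencing depth, and their number limits the precision.

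Each gene took its probe set with the highest mean, and was kept if 1 value reached the median of all values (4.63). Groups came from the titles. limma 3.58.1 in R 4.3.3 (lmFit, eBayes, Benjamini-Hochberg over 10823 genes) gave the average effects and was tested on simulated data. Python 3.11.15, pandas 2.3.3, numpy 2.4.6 and matplotlib 3.10.9 did the rest. The members, lists, tests and alternatives were chosen with earlier results of these data known. The rule for named genes took all 9 members, up to 6 genes per list and comparison at least 1.5-fold different after CC-292 or 4-fold between controls, and the 3 nearest genes of each member past 1.5-fold. The labels do not say how cultures were grown relative to each other. Promoters were read from a RefSeq table holding 250 bases before and 50 after each start site, of which the first 250 were used. Alternatives were a gene's mean over probe sets, its middle probe set by difference (the lower of the middle pair for an even number), other brightness minimums, 3 normalizations, a 2-fold threshold, an intensity trend, and a model without the other factor.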

Additional observations from a re-analysis of the deposited data

Results flagged for a closer look

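Some genes had CC-292 differences of opposite sign in the lines. With 1 array per group, none of these differences between lines was tested. Among the members, BCL10 was at 0.20 in REC-1 and -0.31 in Z138, a gap of 0.50. RELA was at -0.16 and 0.06 in the same order (gap -0.22) and MALT1 at -0.08 and 0.08 (gap -0.16). For RELA the gap was 0.02 with the mean of its probe sets.

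Among the genes of the 4 lists named above, the REC-1 value was above 0 and the Z138 value below 0 for CCR7 (gap 1.51), NFKB2 (0.79), IKBKB (0.77), RNF31 (0.77) and PRKCB (0.76). The opposite held for PLEK (gap -1.15), GADD45B (-0.36) and BCL2A1 (-0.23). Listed genes not named above differed in sign too, on both sides. BCL3 (gap -1.01), CHUK (-0.84), IKBKG (-0.81) and CFLAR (-0.72) were below 0 in REC-1 only. TAB1 (0.61) and TAB3 (0.57) were below 0 in Z138 only. These values are of the brightest probe sets. For GADD45B the mean over 4 probe sets had the other sign in each line, 0.27 in REC-1 and 0.00 in Z138, the Z138 value just below 0. For BCL2A1 both Z138 levels, 2.91 with CC-292 and 2.83 in the control, lay below the background median, so that little can be read from its sign there.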

How the results depend on the processing

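No alternative reversed a member difference of 1.5-fold or more after CC-292 or between the control arrays. In REC-1, 2 members were at least 1.5-fold lower, but 1 with the mean of probe sets, 1 with the 70th percentile of brightness (log2 6.61, where LTA is not kept) and 1 at a 2-fold threshold. In Z138 none was, but 1 was, LTA, when probe sets were averaged and 1, LTA again, for the middle probe set. Both take in its dim probe set. For the difference between the lines in the CC-292 difference, 1 member was 1.5-fold lower, but 2 with centred arrays, 0 with quantile normalization, 0 with cyclic loess and 0 at a 2-fold threshold. TNFAIP3 kept a value between -0.65 and -0.56 there under 7 alternatives. LTA had 0.36 with the mean of probe sets. Between control arrays, LTA was at 0.52 on its brightest probe set, -0.12 averaged and -0.76 for the middle probe set. Small differences of the opposite sign were BCL10 in REC-1 (-0.04 averaged and -0.01 for the middle probe set) and RELA in REC-1 (0.09 with the mean). The line effect was called for REL, NFKBIA, TNFAIP3 and BCL10 under all 8 alternatives. NFKB1 passed as well under 4 of them, the mean of probe sets (adjusted p = 0.0410 in limma), the 70th percentile (0.0419), the intensity trend (0.00951) and the model without CC-292 as a term (0.0466), and NFKBIE under the trend (0.0351). The average CC-292 effect gave no call for any gene under the 8 alternatives. The cause of these changes was not tested beyond the probe sets named. The model of the average CC-292 effect already compares the cultures within each line, and the labels give no replicate numbers for a further block.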
